A study of Caenorhabditis elegans with 2 samples.

Results

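The genes described here are the noncoding RNA genes that the Ensembl annotation of WBcel235 labels ncRNA or lincRNA on the 6 nuclear chromosomes of Caenorhabditis elegans. They number 7958 of 46890 annotated nuclear genes, with 7764 in the ncRNA class and 194 in the lincRNA class. A gene counted as marked if a SET-16 peak summit of the conservative whole-series list lay within 200 bp of its annotated start. On that rule 665 of the 7958 genes were marked. The labels ncRNA and lincRNA are annotation classes, and no transcription was measured here.

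The study profiled SET-16 by chromatin immunoprecipitation and sequencing (ChIP-seq) in whole L4 larvae of strain RW12223. In this strain the endogenous set-16 gene on chromosome III carries a TY1, EGFP and 3xFLAG tag (allele st12223) made by CRISPR, and the protein was pulled down with an antibody against GFP according to the sample description, although the antibody field of the labels reads set-16. Synchronised animals, hatched after bleaching and starved as L1, were taken at 48 hours, and the 2 biological replicates form 1 group, so no contrast between conditions exists. Whole animals mix all tissues, so a peak cannot be assigned to a cell type. The labels name 1 strain and no second tagged line. The labels also point to a possible control, whose data were not analysed here.

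SET-16 is a SET-domain enzyme related to mammalian MLL3 and MLL4, which methylate lysine 4 of histone H3, mainly at enhancers and active gene starts. In the worm it is known for a role in larval growth and in limiting Ras signalling during vulval development. Noncoding RNA genes of the worm include a few well-studied RNAs, such as those of the signal recognition particle and of ribonuclease P, and many short loci known mainly from RNA sequencing, for most of which no function is known. Long intergenic noncoding RNAs (lincRNAs) are longer transcripts, often spliced, that lie mostly between protein-coding genes.

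The sequences that carried the strongest marks are shown first, because they show where each summit sat against the annotated RNA and what kind of DNA it was. Each is 201 bases of WBcel235 (the same assembly as ce11) centred on the conservative summit, on the strand of the RNA gene, and capitals are bases inside the annotated gene. Except for T28F4.7, they are the summits of highest signal among marked genes called in both replicates, with 1 gene for each summit. The summit of T28F4.7 has a signal of 3235, between those of Y39A1A.28 (3469) and Y37A1B.333 (3023). Its window is not printed, and the ranges given below leave it out. The GC content at that summit was 63.2%. The window of H37A05.5 is chrV:13646030-13646230 (minus strand), that of Y39A1A.28 chrIII:10634115-10634315 (plus strand), that of Y37A1B.333 chrIV:14033649-14033849 (minus strand), that of C34D10.3 chrX:8017325-8017525 (plus strand) and that of F19C6.11 chrX:9999619-9999819 (minus strand).
H37A05.5: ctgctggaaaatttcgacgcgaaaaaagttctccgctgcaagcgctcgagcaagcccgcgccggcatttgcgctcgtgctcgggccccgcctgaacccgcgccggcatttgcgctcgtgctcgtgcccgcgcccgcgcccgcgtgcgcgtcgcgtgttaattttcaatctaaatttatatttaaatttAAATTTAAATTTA
Y39A1A.28: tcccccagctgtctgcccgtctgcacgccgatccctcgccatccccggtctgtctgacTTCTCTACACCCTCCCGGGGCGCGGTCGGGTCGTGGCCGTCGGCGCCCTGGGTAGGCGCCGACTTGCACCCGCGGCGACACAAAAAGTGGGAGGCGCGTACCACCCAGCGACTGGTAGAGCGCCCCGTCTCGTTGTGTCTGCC
Y37A1B.333: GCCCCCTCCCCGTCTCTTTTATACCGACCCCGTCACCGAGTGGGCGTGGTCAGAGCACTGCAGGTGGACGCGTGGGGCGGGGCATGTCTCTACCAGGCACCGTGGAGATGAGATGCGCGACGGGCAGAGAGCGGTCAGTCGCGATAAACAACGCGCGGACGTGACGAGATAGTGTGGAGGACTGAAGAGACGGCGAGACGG
C34D10.3: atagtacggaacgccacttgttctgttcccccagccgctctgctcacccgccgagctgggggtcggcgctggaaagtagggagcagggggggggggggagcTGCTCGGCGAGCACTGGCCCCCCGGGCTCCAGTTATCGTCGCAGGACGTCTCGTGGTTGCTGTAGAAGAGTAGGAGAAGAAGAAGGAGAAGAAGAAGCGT
F19C6.11: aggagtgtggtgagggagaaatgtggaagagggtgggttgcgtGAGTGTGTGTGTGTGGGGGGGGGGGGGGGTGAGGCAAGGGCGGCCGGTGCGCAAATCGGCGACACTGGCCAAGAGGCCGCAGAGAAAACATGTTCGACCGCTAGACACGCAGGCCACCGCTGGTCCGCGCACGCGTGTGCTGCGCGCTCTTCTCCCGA

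The GC content of these windows ran from 55.2% to 69.7%, and they held between 15 and 29 CpG dinucleotides each. At H37A05.5 only 13 of the 201 bases belonged to the annotated gene, since the summit lay 88 bp upstream of its start in a CpG-dense stretch with 29 CpG. At Y37A1B.333 the whole window of 201 bases lay inside the gene. C34D10.3 had its summit 1 bp upstream of its start, beside a run of G, and the window held an uninterrupted stretch of 26 purines or pyrimidines. The F19C6.11 window carried a GTGTGTGT repeat.

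Marked genes made up 8.36% of the noncoding genes (95% interval 7.76 to 8.99). The background share was 2.97% of all nuclear genes, 1.87% of nuclear genes outside the 2 classes, and 2.49% of protein-coding genes (497 of 19973, interval 2.28 to 2.71). Within the noncoding genes the ncRNA class had 658 of 7764 marked (8.48%, interval 7.86 to 9.12). The lincRNA class had 7 of 194 (3.61%, interval 1.46 to 7.29), an interval that contains the protein-coding share. Other short RNA classes lay on both sides of this share, with 15.7% of 612 tRNA genes, 15.5% of 129 small nuclear and 13.3% of 346 small nucleolar RNA genes marked, against 3.83% of 261 microRNA genes (interval 1.85 to 6.93) and 17 of 15363 piRNA genes (0.111%). No test of these differences was made; intervals are exact binomial (Clopper-Pearson) and cover counting error only, and neighbouring genes share summits.

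**Figure D1:**
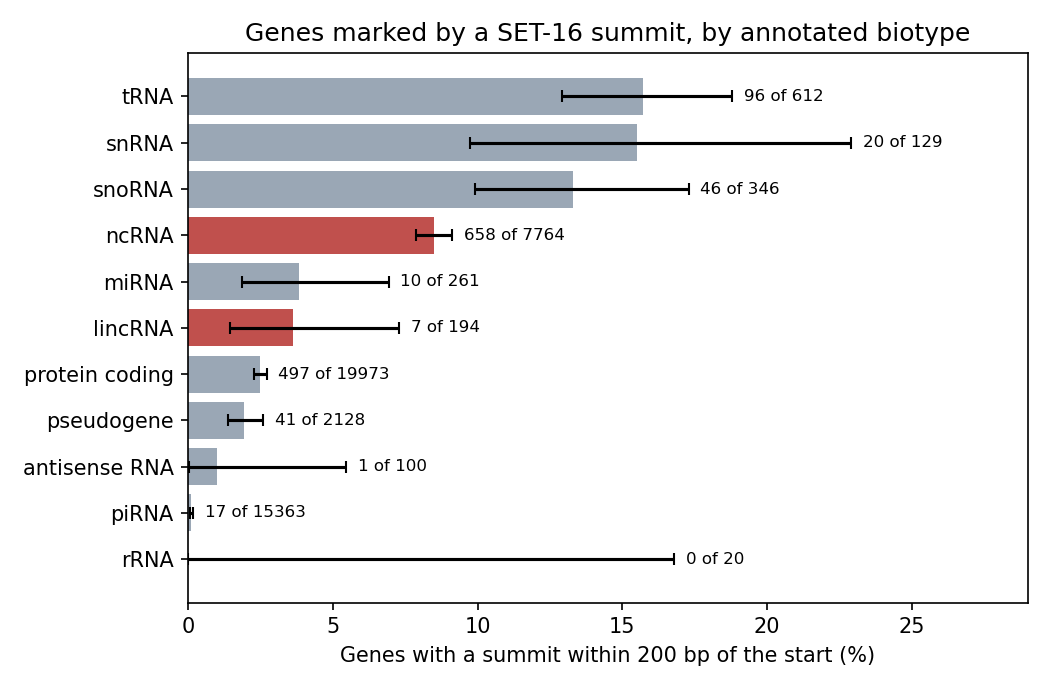
Bars give the percentage of nuclear genes of each annotated biotype with a conservative summit within 200 bp of the start, with exact 95% binomial intervals and counts at the right; the 2 described classes are red. The ncRNA class stands at 8.48%, above protein-coding genes at 2.49% and below tRNA genes at 15.7%, and the lincRNA class stands at 3.61%.

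The genome within 200 bp of a noncoding gene start amounted to 2.75% of the nuclear sequence and held 561 of the 5795 conservative summits (9.68%, interval 8.93 to 10.5). The share was 9.34% of the 5876 summits of the replicate 1 thresholded list and 12.2% of the 4377 summits of replicate 2. In the longer ranked lists, which include peaks below the authors' threshold, it was 6.14% of 25790 in replicate 1 and 5.22% of 35606 in replicate 2. Among the conservative summits of highest signal, 4 of the top 10, 23 of the top 100 and 67 of the top 500 lay within 200 bp of a noncoding gene start, against 43 of the 500 of lowest signal.

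Each replicate alone marked nearly as many of these genes as the conservative list. Replicate 1 marked 643 (8.08%) and replicate 2 marked 648 (8.14%), and the background over all nuclear genes was 2.82% in each. The sets differed in part, since 131 of the 643 and 123 of the 648 were not marked in the conservative list. Of the 665 marked genes, 426 (64.1%, interval 60.3 to 67.7) also had a thresholded summit within 200 bp in both replicates, where the background over all nuclear genes was 1.8%. Replicate 1 alone had one at a further 86 and replicate 2 alone at 99, which left 54 with none. Of those 54, 43 had a ranked peak within 200 bp in both replicates. With ranked peaks as the measure, 631 of 665 (94.9%) had one in each replicate, against backgrounds of 9.78% of all nuclear genes with a replicate 1 ranked peak and 12.3% with one of replicate 2. These are not independent of the marks, since the conservative list was made from the same libraries. The backgrounds of 1.8%, 9.78% and 12.3% count all nuclear genes, marked or not, so they are not like comparators for shares of marked genes. Of the 7293 unmarked genes, 15 had a thresholded summit in both replicates.

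Genes with a stronger marking summit were more often in both replicate lists, which were made from the same libraries as that summit. Signal is the authors' peak strength. Its scale is not stated, and it is compared only within a list. Among the 167 marked genes of lowest signal (8.58 to 129), 25 were in both replicate lists (15%, interval 9.93 to 21.3) and 53 in neither, with 29 in the list of replicate 1 alone and 60 in that of replicate 2 alone. Among the 166 of highest signal (367 to 4169), 157 were in both (94.6%, interval 90 to 97.5) and 1 in neither. The 426 genes in both lists had a median signal of 271 and a median GC content at the summit of 55.2%. The genes in replicate 2 only had medians of 120 and 50.2%, and those in replicate 1 only 156 and 53.2%. Marked protein-coding genes were in both lists in 269 of 497 cases (54.1%, interval 49.6 to 58.6). Their median signal was 169, against 195 for the marked noncoding genes, so the 2 sets were not compared at equal signal.

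**Figure D2:**
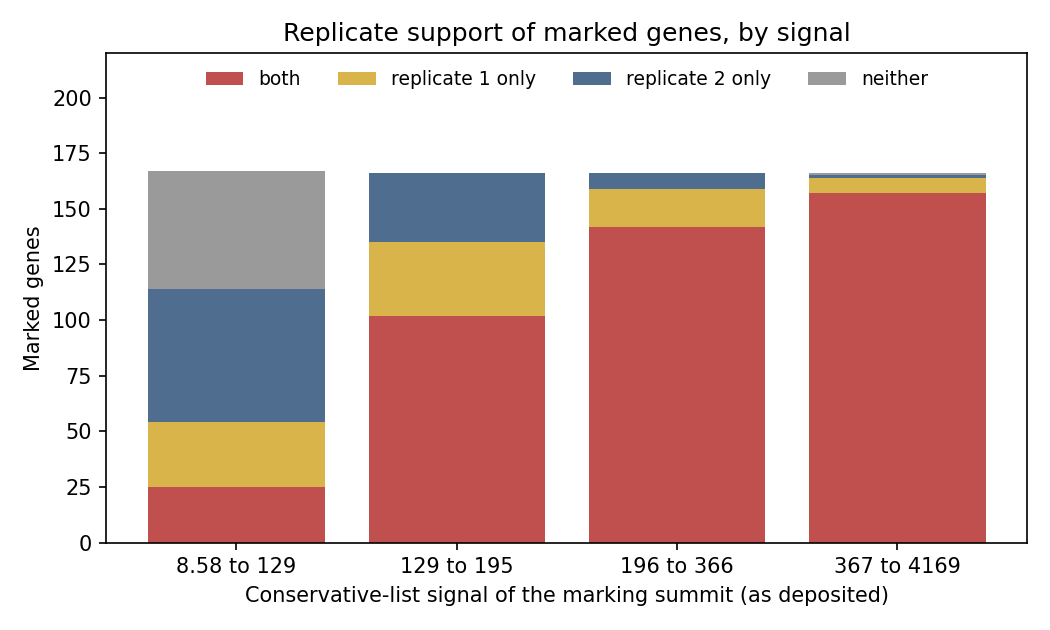
Marked ncRNA and lincRNA genes in 4 groups of nearly equal size by conservative-list signal, each bar divided by the replicate thresholded lists with a summit within 200 bp of the gene start. Genes in both lists number 25 of 167 in the group of lowest signal and 157 of 166 in the group of highest signal.

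The signal of the strongest ranked peak within 200 bp of the start ran from 5.02 to 2376 in replicate 1 (median 95.6, 643 genes) and from 4.76 to 2233 in replicate 2 (median 98.1, 650 genes). That peak need not be the one that gave the conservative summit. Across the 631 marked genes with a ranked peak in both, the 2 signals had a Spearman rho of 0.675. Against GC content at the summit, rho was 0.647 for the replicate 1 signal and 0.449 for that of replicate 2. Taking 1 gene for each summit (514 genes) gave 0.680, 0.660 and 0.444. These are descriptions across genes, which share libraries, base composition and often a summit.

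**Figure D3:**
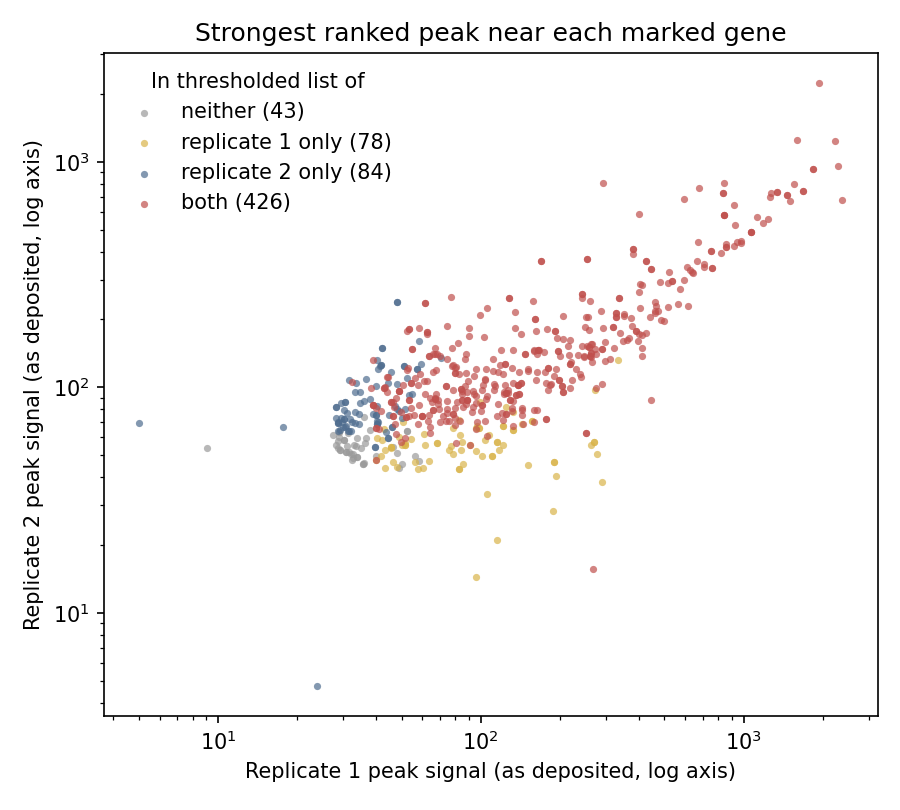
Signal of the strongest ranked peak within 200 bp of the start of each marked gene, replicate 1 against replicate 2 on log axes, 1 point for each of the 631 genes with a peak in both, coloured by membership of the thresholded lists. Points in both lists (426) extend to the highest signals in both replicates, and those in 1 list or neither have a signal of at most 132 in at least 1 replicate.

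Marked genes had a higher median GC content around their starts than unmarked ones. Within 100 bp of their summits the median GC content was 53.7% (lowest 36.8%, highest 69.7%), against 54.7% at the 5234 conservative summits that marked no noncoding gene. Around the gene start the median was 49.3% for marked and 40.3% for unmarked noncoding genes, and 35.8% for protein-coding genes. The stratum used below is the highest GC content among windows of 201 bp centred at steps of 25 bp within 200 bp of the start. It was 55% or more for 589 noncoding genes in all, and 369 of those were marked (62.6%, interval 58.6 to 66.6). Of the 1274 noncoding genes under 40%, 1 was marked, and of the 2192 at 40 to 45%, 6 were.

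Noncoding and protein-coding genes were then set side by side in the same strata of GC content. At 50 to 55% GC, 228 of 1456 noncoding genes were marked (15.7%, interval 13.8 to 17.6), against 175 of 1657 protein-coding genes (10.6%, interval 9.12 to 12.1). At 55 to 60% the shares were 59% (272 of 461, interval 54.4 to 63.5) and 44.2% (201 of 455, interval 39.6 to 48.9). At 60% or more they were 75.8% (interval 67.4 to 82.9) and 79.8% (interval 69.9 to 87.6), with overlapping intervals. Nuclear genes of all other biotypes were marked in 14.5% of cases at 50 to 55% GC (interval 12 to 17.3), which overlaps the noncoding interval. Their share was 33.3% at 55 to 60% (interval 27.3 to 39.8) and 55% at 60% or more (interval 38.5 to 70.7). The GC-rich strata at 55% or more held 7.4% of noncoding genes (interval 6.84 to 8) and 2.72% of protein-coding genes (interval 2.5 to 2.96). Protein-coding shares in strata of 2% GC, applied to the GC content of the noncoding genes, came to 486 marked genes (6.11%) where 665 were observed. The same calculation gave 476 against 643 in replicate 1 and 407 against 648 in replicate 2. These are counts of genes, and 250 of the 665 shared their strongest summit with another noncoding gene. The genes are therefore not independent, and the intervals cover counting error only. GC content was the one property held similar, and the part of others was not tested.

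**Figure D4:**
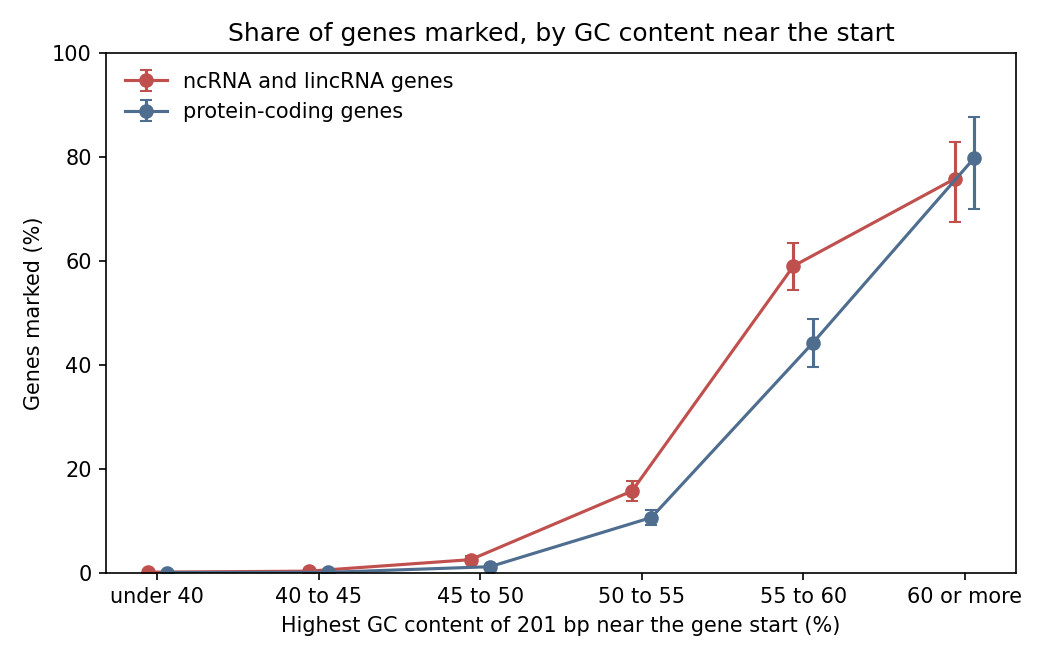
Percentage of genes marked in each stratum of GC content, for noncoding (red) and protein-coding (blue) genes, with exact 95% binomial intervals. GC content is the highest among windows of 201 bp centred at steps of 25 bp within 200 bp of the start. Both lie under 1% below 45% GC and at 75.8% and 79.8% at 60% GC or more, and the noncoding share is the higher in the other strata, with overlapping intervals below 45% GC.

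Most marked genes had their strongest summit inside the RNA gene itself. The noncoding genes were short, with a median length of 141 bp (140 bp for ncRNA, 761 bp for lincRNA), so a window of 200 bp to each side of the start usually spans the whole gene. For 408 of the 665 marked genes (61.4%, interval 57.5 to 65.1) the strongest summit lay within the annotated gene, for 186 upstream of the start and for 71 beyond the far end. A summit shared by several genes counts once for each of them. The median position was 59 bp downstream of the start, with the middle 50% of genes between 9 bp upstream and 118 bp downstream. For the 497 marked protein-coding genes the median position was 12 bp downstream. Among the 607 marked genes of at most 300 bp, the summit lay a median of 56.5 bp from the middle of the gene. Genes of 151 to 300 bp were marked in 221 of 1760 cases (12.6%), those of 140 to 150 bp in 130 of 1856 (7%) and those under 100 bp in 128 of 2080 (6.15%).

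**Figure D5:**
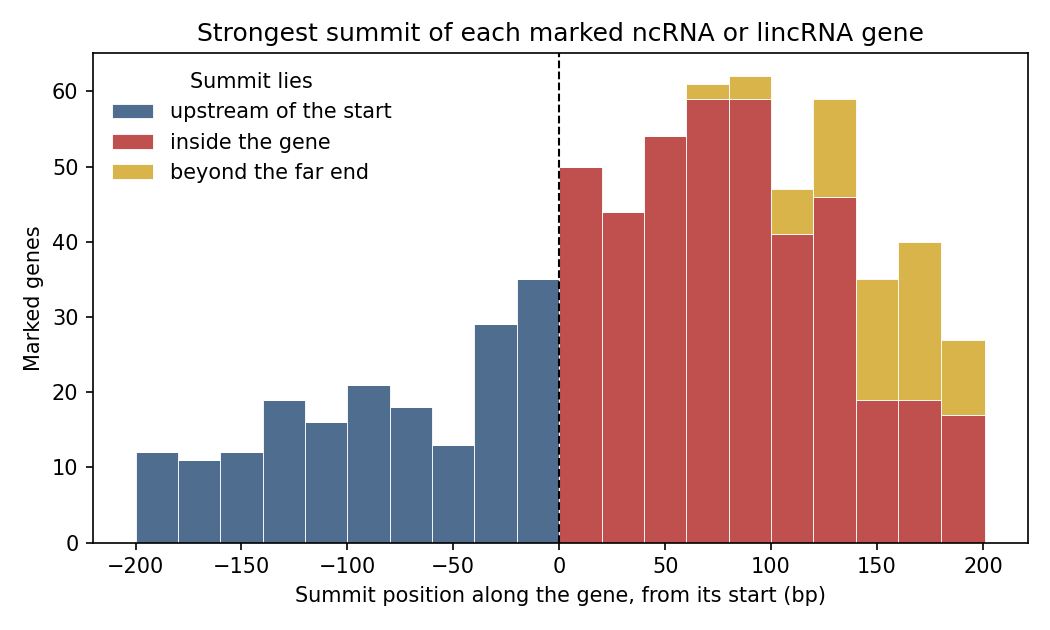
Histogram of the position of the strongest summit along each of the 665 marked genes in bins of 20 bp, with the gene start at 0 (dashed line) and positive values downstream. Summits inside the gene (408) are most frequent between the start and about 140 bp, with 186 upstream and 71 past the far end of short genes.

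Fewer than 50% of marked and of unmarked genes overlapped a protein-coding gene. Of the 665 marked genes, 272 (40.9%, interval 37.1 to 44.7) overlapped a protein-coding gene by at least 1 bp, against 3331 of 7293 unmarked genes (45.7%, interval 44.5 to 46.8), and the 2 intervals overlap. Read the other way, 393 of the 4355 genes with no overlap were marked (9.02%, interval 8.19 to 9.91) and 272 of the 3603 with one (7.55%, interval 6.71 to 8.46). Counting 1 gene for each summit, 234 of 534 marked genes overlapped one (43.8%, interval 39.6 to 48.1), an interval that contains the share of unmarked genes. Most of the overlap was with a gene on the other strand. Of the 272 marked genes with an overlap, 195 ran on the opposite strand only (71.7%, interval 65.9 to 77), 75 on the same strand only and 2 on both. Among unmarked genes with an overlap the opposite-strand share was 67.6% (interval 66 to 69.2).

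By strand of the chromosome, 333 marked genes were on the plus and 332 on the minus strand. Summits of marked genes lay in intergenic DNA, here meaning outside protein-coding genes, in 401 cases (60.3%), in introns in 200 (30.1%), in coding exons in 47 and in untranslated or other exons in 17. The share of marked genes in both replicate lists was 62.3% (interval 57.3 to 67.1) with no overlap, 67.7% (interval 60.6 to 74.2) on the opposite strand and 64% (interval 52.1 to 74.8) on the same strand, with overlapping intervals. The median conservative signal was 190, 202 and 215 in the same order.

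The marked genes with an overlap overlapped 216 protein-coding genes in all, of which 207 met 1 or 2 of them. The 9 hosts named next were picked because they met 3 or more. Over all noncoding genes with an overlap, 7.55% were marked. peb-1, which encodes a DNA-binding protein of the pharynx, overlapped 11 noncoding genes, of which 5 were marked, at 4 distinct summits. For ppfr-1, a phosphatase regulatory subunit gene, 4 of 7 were marked at 3 summits, and for T28B11.1 4 of 24 at 3 summits. All 3 noncoding genes at tba-7, an alpha-tubulin gene, were marked by 1 summit. The marked genes were 3 of 4 at grl-25, 3 of 5 at bed-2, 3 of 6 at F43B10.1, 3 of 9 at F28E10.1 and 3 of 14 at twk-13. Since several RNAs in 1 host share a summit, these are not separate binding events.

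Most marked genes were not at protein-coding starts. The start of 73 of 665 (11%, interval 8.7 to 13.6) lay within 200 bp of a protein-coding start, against 7.83% of unmarked genes (interval 7.22 to 8.47). Genes within 200 bp of a protein-coding start were marked in 73 of 644 cases (11.3%, interval 8.99 to 14), and those from 201 to 1000 bp away in 181 of 1811 (9.99%, interval 8.65 to 11.5). From 1001 to 5000 bp away it was 305 of 4150 (7.35%, interval 6.57 to 8.19), and beyond 5000 bp 106 of 1353 (7.83%, interval 6.46 to 9.4). The summits of 56 marked genes were also within 200 bp of a protein-coding start, and those of 86 (12.9%) within 200 bp of the start of a tRNA, small nucleolar, small nuclear or microRNA gene.

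Many noncoding genes came in pairs on opposite strands, and most marked genes of such pairs had a marked partner. Of all noncoding genes, 2092 were overlapped by one on the other strand across at least 50% of both spans, and 202 of those were marked (9.66%, interval 8.42 to 11). Among the 5866 without such a partner, 463 were marked (7.89%, interval 7.22 to 8.61). For 170 of the 202 marked genes with a partner (84.2%) the partner was marked too. The annotation holds 481 pairs with the same outline on both strands, 480 of them under 1 sequence name with separate gene identifiers. Both genes were marked in 22 of these pairs and 1 gene in 6. In all, the 665 genes had 534 distinct strongest summits, of which 415 were the strongest of 1 gene, 107 of 2 and 12 of 3. Genes of a pair are therefore not independent, and a summit between them cannot be assigned to either strand.

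Along the chromosomes, the marked share ran from 6.8% on chromosomes II and V to 12.4% on chromosome III (98 of 793, interval 10.1 to 14.9). Chromosome X held 2558 of the noncoding genes and 221 of the marked ones (8.64%, interval 7.58 to 9.8). The arms of the autosomes, taken as the outer parts when each is cut into 3 equal lengths, held 275 of 2888 marked (9.52%, interval 8.48 to 10.7), and the centres 169 of 2512 (6.73%, interval 5.78 to 7.78). The regions were also set side by side in the same strata of GC content. At 55 to 60% GC the shares were 59.9% on arms, 60.5% in centres and 57% on X. At 50 to 55% GC they were 18.5% (interval 15.5 to 22), 14.8% (interval 11.3 to 19) and 13% (interval 10.3 to 16.2), with overlapping intervals.

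The 15 marked genes of highest signal among those in both replicate lists were all of the ncRNA class, and none carries a gene name beyond its sequence name. H37A05.5 (WBGene00199075, chromosome V 13645973 to 13646042, minus strand) stood first, with a conservative signal of 4169, rank 2 of 5795. Its signal was 1943 in replicate 1 (rank 9 of 25790) and 2233 in replicate 2 (rank 2 of 35606). It overlapped no protein-coding gene, and the nearest protein-coding start was 3738 bp away.

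Y39A1A.28 (WBGene00198642, chromosome III 10634173 to 10634381, plus strand) had a conservative signal of 3469, with 2236 in replicate 1 (rank 5) and 1242 in replicate 2 (rank 7), and its summit 42 bp inside the gene. T28F4.7 (chromosome I 7475046 to 7475283, plus strand) lay in an intron of T28F4.1 on the opposite strand. Its signal was 3235 in the conservative list, 2284 in replicate 1 (rank 4) and 956 in replicate 2 (rank 17). Y37A1B.333 (chromosome IV 14033569 to 14033866, minus strand) had 3023, with 2376 in replicate 1 (rank 3) and 674 in replicate 2 (rank 70), each rank within its own list. The nearest protein-coding start to Y37A1B.333 was 9914 bp away. Its opposite-strand partner Y37A1B.330 was marked by the same summit but had no replicate 2 ranked peak within 200 bp of its own start.

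C34D10.3 (chromosome X 8017426 to 8017573, plus strand) lay in an intron of unk-1 on the same strand. Its signal was 2834, with 1593 in replicate 1 (rank 23) and 1249 in replicate 2 (rank 6). The pair F19C6.9 and F19C6.11 on chromosome X, within 568 bp of the start of the G protein-coupled receptor kinase gene grk-1, shared a summit of signal 2750 (1837 in replicate 1, 933 in replicate 2). The pair F58G1.11 and F58G1.12 in an intron of F58G1.7 on chromosome II are mirrored almost base for base, at 12944984 to 12945127 and 12944985 to 12945128. They shared a summit of 2416 (1684 and 740). In both of these pairs the replicate values were the same for the 2 genes.

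T26A5.10 on chromosome III, 508 bp from the start of the dynein light chain gene dlc-1, had a signal of 2352 (1555 in replicate 1, 799 in replicate 2). F47F6.13 and F47F6.15 (chromosome II 1246968 to 1247045 and 1247011 to 1247153) lay on opposite strands in an intron of lin-42, the heterochronic timing gene related to Period. They shared a summit of 2179, with 1466 in replicate 1 (rank 30) and 715 in replicate 2 (rank 54). F56A12.8 on chromosome V had 2165 (1502 and 667), with its summit past the far end of the gene. W06H8.12 and W06H8.14, both on the minus strand of chromosome V, shared a summit of 2074 (1338 and 737) that lay upstream of the first and beyond the far end of the second. The same summit also marked W06H8.13 on the plus strand, 199 bp inside that gene. W06H8.13 is not among the 15, because it had no replicate 2 thresholded summit within 200 bp of its start. All 15 ranked within the first 35 peaks of the conservative list, and their summits had a GC content of 55.2% to 69.7%.

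Genes of the signal recognition particle RNA, the RNA of the particle that directs secreted proteins to the endoplasmic reticulum, were all marked. This class was singled out after its values were seen. Over all noncoding genes 8.36% were marked. The highest GC content near the start of the 5 srpr genes was 59.7% to 67.2%. Noncoding genes at such GC content were often marked, 59% of them at 55 to 60% GC and 75.8% at 60% or more. Each of the 5 srpr genes had a summit inside the gene, 111 to 153 bp from its start, and a thresholded summit in both replicates. srpr-3 (WBGene00195018, chromosome V 9293334 to 9293632, minus strand) had the highest signal at 1150, with 754 in replicate 1 (rank 162) and 401 in replicate 2 (rank 215). srpr-1.1 had 571 (374 and 204), srpr-1.2 560 (352 and 211), srpr-2.2 492 (242 and 249) and srpr-2.1 409 (205 and 207). The 5 genes are 81.7% to 99% identical to each other, and for 4 of them the 51 bases around the summit occur elsewhere in the genome. Reads can therefore have been shared between copies, and the order among them is uncertain. srpr-3 is also annotated a second time as F44A2.13, with an outline 1 bp longer, so 1 summit marked both entries. Its window at chrV:9293388-9293588 (minus strand) lies wholly within the gene.
srpr-3: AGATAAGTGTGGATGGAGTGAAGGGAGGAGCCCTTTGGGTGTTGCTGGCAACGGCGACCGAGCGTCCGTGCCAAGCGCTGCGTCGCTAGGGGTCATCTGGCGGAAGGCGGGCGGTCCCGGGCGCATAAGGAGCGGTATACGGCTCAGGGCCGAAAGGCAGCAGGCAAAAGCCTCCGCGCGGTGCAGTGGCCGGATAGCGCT

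Of 8 RNAs of known role that had been listed, 6 were found in these classes of the annotation by name and 2 of those were marked. The share was 8.36% over all noncoding genes and 2.97% over all nuclear genes. The highest GC content near the start was 61.7% at rpr-1, 53.7% at mrpr-1 and 49.3% at tts-1. It was 48.3% at rncs-1, 45.3% at lep-5 and 43.8% at yrn-1. Of all noncoding genes, 75.8% were marked at 60% GC or more and 2.49% at 45 to 50%. rpr-1, the RNA of ribonuclease P that trims tRNA precursors (WBGene00045238, chromosome I 13463955 to 13464207, plus strand), lay in an intron of ints-8 on the opposite strand, with its summit 21 bp before the start. Its conservative signal was 1113, with 672 in replicate 1 (rank 214) and 439 in replicate 2 (rank 173), and GC content there was 62.2%. tts-1, a noncoding RNA abundant in long-lived worms (chromosome X 1504131 to 1504841, minus strand), had its summit 131 bp before the start and a conservative signal of 180. Its ranked signals were 57.4 in replicate 1 (rank 4804) and 120 in replicate 2 (rank 1567), and it passed the threshold in replicate 2 only.

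mrpr-1, the RNA of ribonuclease MRP, an enzyme related to ribonuclease P that processes ribosomal RNA, was not marked, although it was called in both replicates. Its signal was 47.2 in replicate 1 (rank 5602) and 112 in replicate 2 (rank 1745), while the nearest conservative summit was 32106 bp away. It was 1 of the 15 unmarked genes with that pattern, of which 3 had a summit in the second whole-series list. rncs-1, an RNA that restrains Dicer, lep-5, a lincRNA of developmental timing in the male tail, and yrn-1, the Y RNA gene, had no ranked peak within 200 bp in either replicate. Their nearest conservative summits were 612, 2135 and 7479 bp away. The related gene tts-2, added after its values were seen, was likewise unmarked, with its nearest summit 225 bp away.

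The lincRNA genes were marked at a share near the background of 2.97% over all nuclear genes. Of the 170 with a linc name, 6 were marked (3.53%), and the one other marked lincRNA was K07C10.8. The ncRNA class holds a second entry of almost the same outline on the same strand, K07C10.3, which the same summit marked. linc-129 on chromosome III, 413 bp from the start of sca-1, the calcium pump of the endoplasmic reticulum, had the highest signal at 503, with 319 in replicate 1 and 185 in replicate 2, and stood at rank 753. K07C10.8 had 317 (165 and 146), linc-91 had 189 (89.2 and 107), and linc-143, in an intron of the insulin receptor gene daf-2 on the same strand, had 175 (93.8 and 81.6). These 4 were in both replicate lists.

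linc-90, antisense to gei-4, had 148 (101 in replicate 1, 49.8 in replicate 2) and linc-95 had 110 (63.6 and 47), both called in replicate 1 only. linc-78, antisense to AH9.1, had 93.4 (39.7 and 54.1) and was called in replicate 2 only. Of the 7 lincRNA summits, 5 lay upstream of the start and 2 inside the gene. The lowest GC content at them was 45.3%, at linc-90, and the highest 56.7%, at linc-129.

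At the lower end, the 5 marked genes of lowest signal were F01G12.14 (8.58), in an intron of the type IV collagen gene let-2, F16A11.13 (10.4), R04B3.7 (10.5), C04A11.8 (13.6) and C48A7.15 (21.1). F16A11.13 was called in replicate 2 and the other 4 in neither replicate list. F16A11.13 lies in ppfr-1, inside an interval with several summits, and its strongest ranked peak in replicate 2 had a signal of 265. The 3 genes with a summit at the 200 bp limit were C23H4.10 (579), F55A8.3 (304) and ZK643.12 (1657). Those just past it were C46C2.12 and W02H5.17 at 201 bp and D1081.15 at 203 bp, and the last 2 were called in replicate 1.

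The marked gene with the lowest GC content at its summit, 36.8%, was C30C11.14 on chromosome III, 186 bp from the start of the chaperone gene hsp-110. It is shown for contrast with the windows above, and was singled out after its values were seen. Its conservative signal was 101, with 56 in replicate 1 and 46.7 in replicate 2, and it passed the threshold in replicate 1 only. The window chrIII:8447056-8447256 (minus strand) held 10 CpG dinucleotides, and 40 of its 201 bases belonged to the annotated gene.
C30C11.14: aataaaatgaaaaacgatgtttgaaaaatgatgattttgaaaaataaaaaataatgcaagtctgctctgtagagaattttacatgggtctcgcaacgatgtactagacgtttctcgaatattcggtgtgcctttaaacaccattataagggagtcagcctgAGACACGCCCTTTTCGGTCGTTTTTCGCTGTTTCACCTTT

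Short repeats were found at a larger share of these summits than of other SET-16 summits, with intervals that do not overlap. The motifs were searched on both strands within 100 bp of the summit, and a match says only that the letters are present. GAGAGAGA (or TCTCTCTC) lay in 83 of 561 windows at summits within 200 bp of a noncoding start (14.8%, interval 12 to 18) and in 5.64% of the 5234 other conservative windows (interval 5.03 to 6.3). It lay in 4.2% of windows at the starts of unmarked noncoding genes and in 1.88% at protein-coding starts. CGCGCG lay in 15.3% (interval 12.4 to 18.6) against 7.91% (interval 7.19 to 8.67), and GTGTGTGT (or ACACACAC) in 7.49% (interval 5.45 to 9.99) against 2.98% (interval 2.54 to 3.48). Among windows of 50 to 60% GC alone the shares were 13.9% and 5.18% for GAGAGAGA, 17.3% and 7.65% for CGCGCG, and 8% and 3.18% for GTGTGTGT. At the starts of unmarked noncoding genes CGCGCG lay in 2.88% of windows and GTGTGTGT in 3.67% (interval 3.25 to 4.13). At protein-coding starts they lay in 1.37% and 1.24%.

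The E-box CAGCTG lay in 8.73% (interval 6.53 to 11.4) against 12.4% at other summits (interval 11.5 to 13.3). At 50 to 60% GC its shares were 9.6% (interval 6.81 to 13) and 11.8% (interval 10.8 to 12.9), with overlapping intervals. GATAAG (or CTTATC) was at 5.35% against 4.36%, and TTTCAAA (or TTTGAAA) at 4.28% against 3.92%, each with overlapping intervals. At the starts of unmarked noncoding genes these 3 lay in 3.48%, 7.72% and 20.3% of windows. Repeats also bear on mapping. For 34 of the 665 marked genes the 51 bases around the summit occur elsewhere in the nuclear genome, and for none of the 15 of highest signal.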

How the data were processed

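ChIP-seq of GFP-tagged SET-16 was deposited as peak lists on ce11 for 2 biological replicates of 1 group. Per the deposited readme, the lists derive from filtered alignments and a control. Aligner, peak caller and versions were not given in the sources used here. Every deposited peak carries a signal, whose scale is not stated, and a score that rescales the irreproducible discovery rate (IDR), up to 1000 and down to 830 in the conservative list. Depth is unknown, because the files used hold no read counts.

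Genes came from Ensembl release 115 (WBcel235) and bases from the RefSeq sequence of the same assembly; every peak lay within its chromosome. Summits were compared with gene starts in Python 3.11.15 (pandas 2.3.3, numpy 2.4.6), and exact 95% binomial (Clopper-Pearson) intervals came from scipy 1.17.1. The code that assigns summits to genes was checked on simulated summits placed at known distances, which is no chance comparison. No test between conditions was possible with 1 group. Named genes were the 15 strongest in both replicates, marked lincRNAs (up to 10), listed RNAs of known role, the 5 weakest, and 3 on each side of the 200 bp limit; exceptions are stated. Where a rank or signal per replicate is given, it is that of the strongest ranked peak within 200 bp. Members, lists and motifs were chosen with earlier results of these data known.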

Additional observations from a re-analysis of the deposited data

How the results depend on the processing

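No paired analysis was possible because the series has a single group. A replicate was left out by using the thresholded list of the other in place of the conservative list, and the totals moved little. Then 634 to 642 ncRNA and 6 to 9 lincRNA genes were marked, 8.08% to 8.14% of all. Of these, 40.3% to 41.7% overlapped a protein-coding gene. The median GC content was 53.2% to 54.2%, and 58.1% to 60.7% of autosomal genes were on arms. The genes were not all the same, since 131 marked by replicate 1 and 123 marked by replicate 2 were not in the conservative set. Of 76 alternative values, 49 stayed within 1.5 times the count or within the interval, and 27 moved, with cause not tested where the setting itself does not show it. The second whole-series list gave 10.2% marked, 52.5% in both replicates and a GC median of 52.7%. Peaks of above-median signal gave 389 ncRNA and 4 lincRNA genes, 4.94%, 86.5% in both and 55.7% GC. Peaks with a score of 1000 gave 6.96%, 76.4% and 54.7%. Summits within 100 bp gave 401 ncRNA genes, 5.11% marked, 53.8% in both and 52.7% GC. Within 500 bp they gave 17 lincRNA genes, 12.2% marked and 46.1% overlapping. Summits in the gene or within 200 bp of it gave 14 lincRNA genes and 9.9%. Interval overlap gave 13 lincRNA genes, 11% and 45.1%. Support in both replicates was 94.9% by ranked summits and 69% by intervals. Median GC content was 56.4% with 50 bp to each side and 46.7% with 250 bp. Taking 1 gene for each summit, an alternative chosen after seeing the data, gave 43.8% overlapping, 64.6% in both, 53.7% GC and 61.3% on arms.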
